A study of Mus musculus with 9 samples.

Results

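The endoplasmic reticulum (ER) chaperone and unfolded protein sensor genes described here are Hspa5, Hsp90b1, Dnajb9, Dnajc3, Sdf2l1, Pdia4, Herpud1, Xbp1, Ern1 and Atf6. They are 10 of the 15552 genes in a table of raw read counts from mouse MyC-CaP cells and were taken by symbol. Earlier results of these data were known when the 10 genes were chosen. All 10 are in the table and all 10 had enough counts to be tested. MyC-CaP is an established prostate cancer line from a mouse tumor driven by a MYC transgene. In every library, cells plated in triplicate wells had first been starved for 6 to 12 h in medium without serum or calcium. The HER3 ligand NRG1 was then given as recombinant protein at 15 ng/mL. The 9 libraries are 3 biological replicates for each collection time, which was 0, 12 or 24 h after NRG1. Libraries kept in the same medium without NRG1 for 12 or 24 h were not analysed here, so time in the medium and time with NRG1 cannot be told apart in any comparison with 0 h. Because the RNA came from whole wells, fewer cells with a transcript and less of it per cell cannot be told apart either.

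The ER is where secreted and membrane proteins fold, with the help of chaperones that hold unfolded chains and enzymes that form disulfide bonds. When unfolded protein accumulates, the sensors IRE1 (encoded by Ern1), ATF6 and PERK (encoded by Eif2ak3) start the unfolded protein response. IRE1 splices Xbp1 mRNA into a form that encodes an active transcription factor, ATF6 is cut in the Golgi to release another, and both raise chaperone and degradation genes, while PERK slows translation and favours synthesis of ATF4. Much of this control acts on protein and on splicing. Counts per gene do not separate spliced from unspliced Xbp1 mRNA, nor active from inactive sensor protein, and the levels below are of total transcript.

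Promoter sequences are shown for the genes in which a textbook ER stress element was found, because these are the sequences through which ATF6 and XBP1 are known to act. RefSeq promoter windows of 300 bases, 250 before and 50 after the transcript start on build GRCm38.p6, were at hand for 9 of the 10 genes, Atf6 being the other. For Dnajb9 the GENCODE start is 258 bases upstream of the RefSeq start. Its window therefore lies inside the gene as GENCODE draws it, and the bases before the GENCODE start were not searched. Searched on both strands, the ER stress element ERSE (CCAAT and CCACG with 9 bases of any kind between them) was found in 3 of the 9, Hspa5, Hsp90b1 and Dnajc3, against 39 of 32851 windows, or 0.119%, over all genes. The related ERSE-II (ATTGG and CCACG with 1 base between them) was found in 1 of the 9, Herpud1, against 0.0365% of all windows. The amino acid response element CARE (TGATGNAA, where N is any base), which ATF4 dimers bind, was also found in Herpud1 alone among the 9, and in 3.97% of all windows. The XBP1 element UPRE (TGACGTGG) was found in 0 of the 9 and in 0.676% of all windows. Matches to these motifs do not overlap each other in the 4 windows. A match is a description of letters and was not tested as a binding site. The ER stress elements are textbook ones for genes of this kind, so their shares beside all windows are not an enrichment found here.

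The Herpud1 sequence below covers the 250 bases before its RefSeq start, at chr8:94386179-94386428 on the plus strand. Its capitals mark, from left to right, CARE on the opposite strand and ERSE-II.
Herpud1 upstream: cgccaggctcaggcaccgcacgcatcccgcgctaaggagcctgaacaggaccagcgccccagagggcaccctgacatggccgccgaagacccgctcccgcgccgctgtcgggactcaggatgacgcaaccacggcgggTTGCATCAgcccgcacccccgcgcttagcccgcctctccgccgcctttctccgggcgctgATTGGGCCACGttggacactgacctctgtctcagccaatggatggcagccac
The Hsp90b1 sequence, at chr10:86705510-86705694 on the minus strand, runs from 250 to 66 bases before the RefSeq start. Its capitals mark an ERSE on the gene's own strand and then an ERSE on the opposite strand.
Hsp90b1 upstream: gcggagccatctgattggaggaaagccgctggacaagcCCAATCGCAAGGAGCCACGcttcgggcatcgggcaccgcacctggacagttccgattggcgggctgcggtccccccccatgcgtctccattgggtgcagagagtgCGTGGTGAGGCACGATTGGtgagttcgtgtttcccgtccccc
For Hspa5, at chr2:34772020-34772048, and Dnajc3, at chr14:118937822-118937850, both on the plus strand, the ERSE is shown in capitals with 5 bases on either side. The Hspa5 element lies inside the gene as GENCODE draws it, whose start is 120 bases upstream of the RefSeq start.
Hspa5 ERSE window: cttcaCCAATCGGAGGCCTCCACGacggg
Dnajc3 ERSE window: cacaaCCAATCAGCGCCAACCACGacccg
The genes that carry these elements differed in which comparisons passed, as the values below show. Herpud1 rose, Hsp90b1 and Dnajc3 each fell in part of the comparisons, and Hspa5 passed the test in none. The falls of Hsp90b1 and Dnajc3 were lost in some alternatives, and differences between these genes were not tested.

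Libraries held between 28467089 and 39239760 counts, with overlapping ranges at the 3 times, and a member's count in a library was between 1247 and 65101. Of 15552 genes, 11373 were tested. No pair of replicates agreed within counting noise: chi-square per degree of freedom ranged from 3.75 to 10.1, and replicate 3 at 12 h gave the highest values, 9.92 and 10.1, against the other 12 h libraries. Mitochondrial genes took 1.46% ± 0.0422 of counts (SD, n = 3) at 0 h, then 1.16% ± 0.0334 at 12 h, and 1.27% ± 0.0756 in the 24 h libraries. Of the prostate luminal markers reported, Hoxb13 was at a mean of 92.2 CPM over the 9 libraries and Krt8 at 21.2. Krt18, a luminal keratin gene, and Epcam and Cdh1, which mark epithelium in general, were near 0 at 0.316, 0.00997 and 0.0470 CPM. Of other cell types, 1 of 5 fibroblast markers (Pdgfra, at 16.5 CPM), 0 of 4 leukocyte markers and 0 of 3 endothelial markers reached 1 CPM, and the summed endothelial level was at most 0.299 CPM in any library. The part of these measures in the results below was not tested.

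Hsp90b1, Hspa5 and Pdia4 had the highest levels of the 10 genes. Levels are given as CPM (counts scaled to library size after TMM normalization) and, to compare genes, as CPM per kilobase of exon. Exon length is the union over all annotated transcripts of a gene, not the length of the transcripts expressed. The order of genes with close levels may depend on that choice, which the SDs do not cover. On the per-kilobase scale at 0 h, the order was Hsp90b1 at 420 ± 7.40, Hspa5 at 376 ± 6.35, Pdia4 at 202 ± 9.12, Xbp1 at 127 ± 11.7, Sdf2l1 at 78.9 ± 2.15, Herpud1 at 51.8 ± 1.58, Dnajc3 at 40.2 ± 0.833, Dnajb9 at 18.7 ± 1.01, Ern1 at 18.5 ± 0.226 and Atf6 at 9.05 ± 0.435 (SD, n = 3). The order was the same at 12 and at 24 h. Hsp90b1 stood 46.4 times above Atf6 at 0 h, with ratios of 47.8 and 42.8 at the later times. Neighbours in the order were apart in every library with a pair of exceptions: Dnajb9 and Ern1 overlapped at all 3 times, and at 24 h Hsp90b1, at 380 ± 3.47, overlapped Hspa5, at 376 ± 5.13. The 10 genes together took 0.489% ± 0.00681 of all counts at 0 h, with 0.483% ± 0.0122 at 12 h and a lower 0.464% ± 0.00317 at 24 h. Most of that came from Hspa5 and Hsp90b1, whose joint share was 0.329%, 0.334% and 0.313%.

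**Figure D1:**
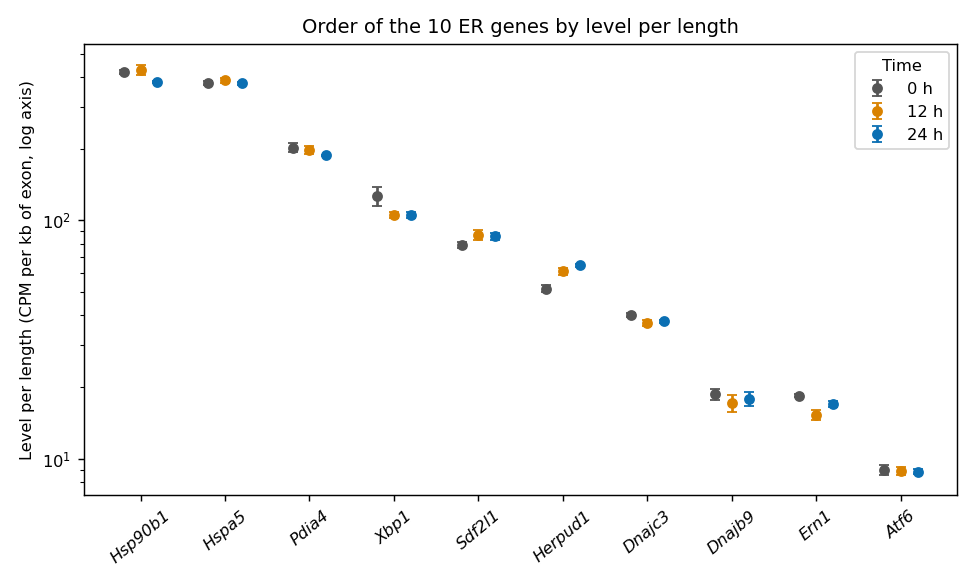
Level of each of the 10 genes per kilobase of exon (CPM per kb, log axis), mean with SD of 3 libraries at 0, 12 and 24 h. Genes run in the order of their 0 h level, from Hsp90b1 at 420 to Atf6 at 9.05, and the order holds at all 3 times.

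To ask whether the response as a whole moved during NRG1 treatment, each time was compared with 0 h. The changes were small and in both directions. At 12 h, Herpud1 and Sdf2l1 were higher and Xbp1, Ern1 and Dnajc3 were lower. At 24 h, Herpud1 again passed as higher and Xbp1 as lower, and Hsp90b1 passed as lower. Sdf2l1, Ern1 and Dnajc3 kept their direction at 24 h but did not pass. No member changed by 1.5-fold in any comparison, where 2.29% of all genes tested did so and passed at 12 h, 2.27% at 24 h and 0.29% between 12 and 24 h, and the 95% intervals of all 10 lay between 0.771-fold and 1.25-fold at 12 h and between 0.772-fold and 1.32-fold at 24 h.

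At 12 h against 0 h, 2 members passed an adjusted p of 0.05 as higher and 3 as lower, 5 of 10, where 25.5% of all genes tested passed, 13.6% as higher and 11.9% as lower. The members' median log2 fold change was -0.02 and that of all genes -0.0028. Their median absolute log2 change was 0.12, beside 0.11 for all genes. At 24 h against 0 h, 1 member passed as higher and 2 as lower, 3 of 10, where 17.4% of all genes passed, 9.67% as higher and 7.76% as lower. The median was then -0.08, beside -0.0065 for all genes. Between 12 and 24 h, Ern1 passed as higher and Hsp90b1 as lower, 2 of 10, where 5.03% of all genes passed, 1.97% as higher and 3.06% as lower. The split over all genes depends on scaling in the first and last of these comparisons. For 24 h against 12 h, 224 genes were higher and 348 lower after TMM but 279 and 265 with total counts, and at 12 h against 0 h the 1547 higher and 1349 lower became 1381 and 1488. The comparisons with 0 h share the same 0 h libraries and so are not independent of each other. Leaving out 1 library moved these counts: at 12 h the number higher was 1 without 0 h replicate 2 or 12 h replicate 1, and the number lower 2 without 0 h replicate 3 or 12 h replicate 2. For the 24 h comparison, 1 was lower without 24 h replicate 1 or 3, and without 12 h replicate 3, which enters that comparison through the shared fit alone, 2 were higher and 4 lower.

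**Figure D2:**
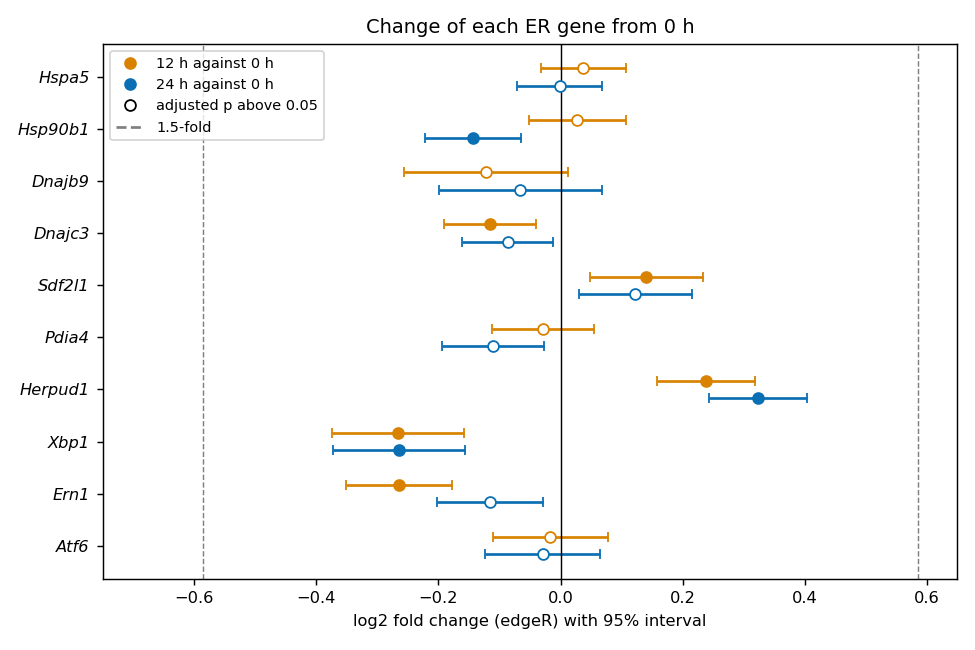
Log2 fold change of each gene at 12 h (orange) and 24 h (blue) against 0 h with its 95% interval, from edgeR. Filled points passed an adjusted p of 0.05, open points did not, and the dashed lines at 1.5-fold lie outside every interval.

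Among the abundant chaperones, Hspa5 passed in no comparison and Hsp90b1 was lower at 24 h than at either earlier time. Hspa5 encodes BiP, the Hsp70 chaperone of the ER, which binds unfolded chains and keeps the sensors inactive. Its levels were 1622, 1582 and 1571 CPM in the 0 h replicates, 1652, 1586 and 1662 at 12 h, and 1569, 1612 and 1589 at 24 h, and the 3 groups overlapped. The change was 0.04 ± 0.03 (log2, SE) at 12 h, with an adjusted p of 0.448 by edgeR, and -0.0013 ± 0.03 at 24 h, with an adjusted p of 0.985. The 95% interval ran from -2.22% to 7.72% at 12 h and from -4.82% to 4.87% at 24 h, and smaller changes could not be told from the replicate spread. Hspa5 stayed on the same side of the threshold under all 15 alternative settings in each comparison.

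Hsp90b1 encodes GRP94, the Hsp90 chaperone of the ER, which folds a narrower set of clients. Its levels were 1724, 1688 and 1665 CPM at 0 h, 1818, 1643 and 1715 at 12 h, and 1521, 1548 and 1528 at 24 h. All 24 h libraries lay below every library of the other times, which overlapped each other. Hsp90b1 did not pass at 12 h (log2 change 0.03 ± 0.04, adjusted p = 0.640 by edgeR). It fell by 9.46% at 24 h against 0 h (log2 -0.14 ± 0.04, adjusted p = 0.0138) and by 11.2% at 24 h against 12 h (log2 -0.17 ± 0.04, adjusted p = 0.0146). The first of these had an adjusted p of 0.0577 without 24 h replicate 1 and 0.0580 without 24 h replicate 3. The second did not pass without any of the 24 h replicates (adjusted p from 0.0578 to 0.0724) or without 12 h replicate 1, the highest library, where it was -0.12 with an adjusted p of 0.0999. Of the exonic bases of Hsp90b1, 10.3% overlap 1810014B01Rik on the opposite strand and 5.38% overlap other genes on its own strand, and whether counting used strand was not stated, so its counts could be shared with these genes.

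Pdia4, a protein disulfide isomerase of the ER, was measured at 509.6, 475 and 469 CPM at 0 h, 496, 469 and 459.6 at 12 h, and 449, 447 and 449.9 at 24 h. The 24 h libraries lay below all others, but the change of -0.11 ± 0.04 at 24 h against 0 h had an adjusted p of 0.0646 by edgeR. It passed in a pair of alternatives, at 0.0417 with the replicate number as a block and at 0.0397 without 12 h replicate 3. At 12 h its change was -0.03, with an adjusted p of 0.650.

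The cochaperones of BiP went different ways. Sdf2l1 encodes an ER protein that works with BiP and DNAJB11 to keep misfolded chains from aggregating. It rose at 12 h, from 89.1, 84.7 and 88.5 CPM to 101, 91.8 and 96.1, and was at 96.4, 97.5 and 91.7 at 24 h. Both later groups lay above all 0 h libraries. The rise at 12 h was 10.2% (log2 0.14 ± 0.04, adjusted p = 0.0262 by edgeR). It did not pass without 0 h replicate 2 (0.12, adjusted p = 0.108) or without 12 h replicate 1 (0.10, adjusted p = 0.151). At 24 h the change of 0.12 ± 0.04 had an adjusted p of 0.0646, and it passed with the 6 libraries of the pair alone (0.0340), with no low-count filter (0.0468) and without 12 h replicate 3 (0.0461).

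Dnajc3 encodes P58IPK, an ER J-domain cochaperone that also restrains PERK. Its level went from 207, 203 and 211 CPM to 195, 185 and 193, and was at 192, 195 and 197 at 24 h. Neither later group overlapped the 0 h libraries. It fell by 7.66% at 12 h (log2 -0.12 ± 0.04, adjusted p = 0.0246 by edgeR). This fall did not pass without 0 h replicate 3 (adjusted p = 0.0944), without 12 h replicate 2 (0.0969) or with the 6 libraries of the pair alone (0.0573). At 24 h the change of -0.09 ± 0.04 had an adjusted p of 0.106. Dnajb9 encodes ERdj4, a J-domain cochaperone that helps BiP silence IRE1. Its levels were 47.9, 50.1 and 45.0 CPM at 0 h, 47.2, 40.1 and 43.9 at 12 h, and 49.1, 44.3 and 43.4 at 24 h, with all 3 groups overlapping. Its changes were -0.12 ± 0.06 at 12 h (adjusted p = 0.174) and -0.07 at 24 h (adjusted p = 0.536). The 12 h interval ran from -16.3% to 0.803%.

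Herpud1 was the member with the largest rise in the table of 10. It encodes an ER membrane protein that joins the HRD1 ubiquitin ligase complex of ER-associated degradation, the route by which misfolded proteins are sent to the proteasome. Its levels were 125, 119 and 119 CPM at 0 h, 140.3, 139.5 and 148 at 12 h, and 151, 153 and 149 at 24 h. Both later groups lay above every 0 h library, and the 24 h libraries also lay above every 12 h library. The rise was 18.0% at 12 h (log2 0.24 ± 0.04, adjusted p = 0.000224 by edgeR) and 25.1% at 24 h (log2 0.32 ± 0.04, adjusted p = 1.52e-05). The step from 12 to 24 h, 0.08 ± 0.04, had an adjusted p of 0.220. Both comparisons with 0 h passed under all 15 alternatives. The gene (ENSMUSG00000031770.16) lies on chromosome 8 from 94386438 to 94395377 on GRCm38, and none of its exonic bases overlap another gene. It is the member whose printed promoter carries both ERSE-II and CARE. Whether these elements bear on its rise was not tested.

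Ern1 and Xbp1, the members that encode IRE1 and its mRNA substrate, were lower at 12 h than at 0 h. Xbp1, whose mRNA is the substrate of IRE1, was at 455, 385 and 395 CPM at 0 h, 353, 335.5 and 338 at 12 h, and 353, 335 and 340.4 at 24 h. Every later library lay below every 0 h library, 0 h replicate 1 stood above the other 0 h replicates, and the 12 and 24 h groups overlapped. Xbp1 fell by 16.9% at 12 h (log2 -0.27 ± 0.05, adjusted p = 0.00108 by edgeR) and fell by 16.7% at 24 h (log2 -0.26 ± 0.05, adjusted p = 0.00159), with a log2 difference of 0.0021 between the later times (adjusted p = 0.987). Both falls passed under all 15 alternatives, and without 0 h replicate 1 they were -0.19 (adjusted p = 0.00244) and -0.18 (adjusted p = 0.00460). Xbp1 (ENSMUSG00000020484.19) lies on chromosome 11 from 5520659 to 5525893.

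Ern1 encodes IRE1 itself. It was at 153, 150 and 149.5 CPM at 0 h, dropped to 125, 119 and 132 at 12 h, and stood between the other times, at 138.5, 144 and 135, at 24 h. The 3 groups did not overlap. Ern1 fell by 16.7% at 12 h (log2 -0.26 ± 0.04, adjusted p = 0.000183 by edgeR), a change that passed under all 15 alternatives. At 24 h against 0 h the change was -0.11 ± 0.04 with an adjusted p of 0.0641, and it passed with the 6 libraries of the pair alone (0.0347) and without 12 h replicate 3 (0.0258). From 12 to 24 h Ern1 rose by 10.9% (log2 0.15 ± 0.04, adjusted p = 0.0455), close to the threshold. That rise did not pass in 9 of 15 alternatives: with the replicate block (0.0581), with the 6 libraries of the pair (0.0662), and without 0 h replicate 2 or 3, 12 h replicate 1 or 2, or any of the 24 h replicates (from 0.0605 to 0.195).

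The sensor gene Atf6 passed in no comparison. Atf6, whose product is an ER membrane protein cut to release a transcription factor, was at 81.8, 88.2 and 80.8 CPM at 0 h, 81.9, 79.9 and 86.2 at 12 h, and 79.9, 83.0 and 82.9 at 24 h. The groups overlapped. Its log2 change was -0.02 at 12 h (95% interval -0.11 to 0.08, adjusted p = 0.822 by edgeR) and -0.03 at 24 h (-0.12 to 0.06, adjusted p = 0.714). Eif2ak3, which encodes the third sensor PERK and is named here outside the rule for named genes, was at 40.6 ± 2.21, 40.8 ± 3.11 and 40.3 ± 1.31 CPM at the 3 times, with log2 changes of 0.01 (adjusted p = 0.962) and -0.01 (adjusted p = 0.938). Of the 3 sensor genes, Ern1 was therefore the one that passed in a comparison with 0 h.

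**Figure D3:**
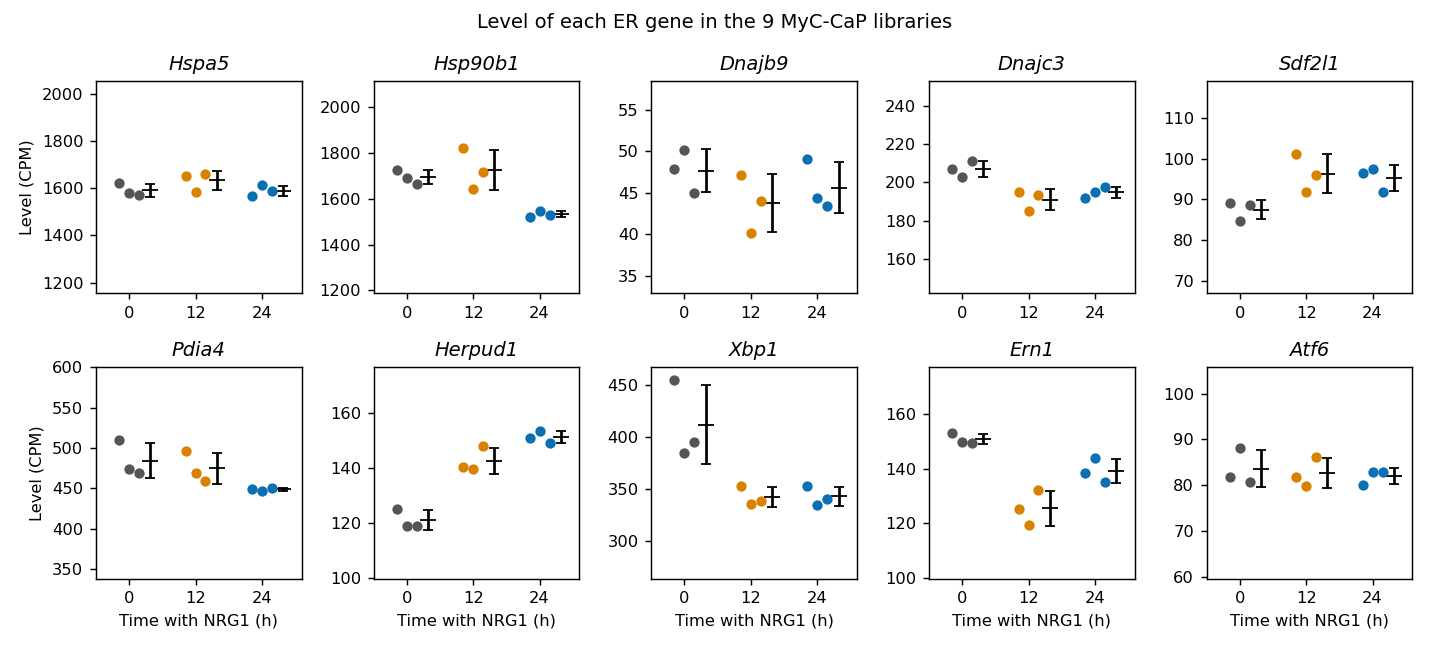
Level of each of the 10 genes in CPM in every library at 0 h (grey), 12 h (orange) and 24 h (blue), with the mean and SD of 3 libraries beside each group. Axes do not start at 0. Herpud1 lies between 119 and 125 CPM at 0 h and between 149 and 153 at 24 h, the 0 h libraries of Xbp1 lie above all others, and the Hspa5 groups overlap.

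Libraries in which a member's groups did not overlap were also counted for all genes. At 12 h against 0 h, 2 members lay wholly above and 3 wholly below the 0 h libraries, 5 of 10, where 38.4% of all genes did not overlap, 19.9% above and 18.5% below. At 24 h against 0 h, Herpud1 and Sdf2l1 lay wholly above and Hsp90b1, Xbp1, Ern1, Dnajc3 and Pdia4 wholly below, 7 of 10, where 35.5% of all genes did not overlap, 17.6% above and 17.9% below. Between 12 and 24 h, Ern1 and Herpud1 lay wholly higher and Hsp90b1 and Pdia4 wholly lower, 4 of 10, where 25% of all genes did not overlap, 11.4% higher and 13.6% lower.

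The rest of the secretory machinery was described with 4 lists written from general knowledge: ER folding (23 genes), ER-associated degradation (ERAD, 18 listed and 17 tested, Derl3 being the exception), translocation and glycosylation (20) and sensors with the PERK arm (14 listed and 12 tested, without Ern2 and Creb3l1). No gene of the 4 lists changed by 1.5-fold and passed in any comparison. Earlier results of these data were also known when the lists were written. The shares of all genes that passed, given above, apply to these counts.

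Of the 23 ER folding genes, 1 was higher and 1 lower at 12 h against 0 h, with a median log2 change of -0.02, and 1 was higher and 7 were lower at 24 h, with a median of -0.06. Between 12 and 24 h, 2 were lower. The gene that rose was Ero1l, the oxidase that recharges protein disulfide isomerases. It went from a 0 h level of 886 ± 88.1 CPM up to 1307 ± 153 at 12 h, with 1060.3 ± 46.6 at 24 h (log2 0.56, adjusted p = 3.14e-05 by edgeR, and 0.26, adjusted p = 0.0198). The fall from 12 to 24 h was by 0.30 on the log2 scale (adjusted p = 0.0229). Its paralog Ero1lb fell by 0.19 at 12 h (adjusted p = 0.0216). At 24 h against 0 h, Cnpy2, an ER resident of the canopy family, fell by 0.20 (adjusted p = 0.00513) and Sdf2, a paralog of Sdf2l1, by 0.16 (adjusted p = 0.0218). Manf, a secreted factor that binds BiP, was at 252, 255 and 226 CPM and fell by 0.16 from 0 to 24 h (adjusted p = 0.0348) and by 0.18 from 12 to 24 h (adjusted p = 0.0442). Several of these calls were lost when 1 library was left out. At 12 h the count lower was 0 without any of 0 h replicates 2 and 3 and 12 h replicates 2 and 3, and 2 without 12 h replicate 1, and the count higher was 2 without 0 h replicate 1. At 24 h the count lower was 4 without 0 h replicate 1 or 24 h replicate 1 or 2. The rise of Ero1l at 24 h did not pass without 0 h replicate 3 (0.19, adjusted p = 0.104), 24 h replicate 2 or 24 h replicate 3, and with DESeq2 neither that rise (adjusted p = 0.0778) nor the fall from 12 to 24 h (0.0735) passed. Sdf2 at 24 h did not pass without 0 h replicate 1 or any 24 h replicate (adjusted p from 0.0595 to 0.0939). Manf at 24 h against 0 h did not pass without 0 h replicate 1 or 3 or any 24 h replicate (from 0.0746 to 0.157). Between 12 and 24 h the count lower was 0 without 12 h replicate 1 or any 24 h replicate, 3 without 0 h replicate 1 and 4 without 12 h replicate 3, and there Ero1l did not pass without 12 h replicate 1 or any 24 h replicate (from 0.0557 to 0.103), nor Manf without 0 h replicate 3, 12 h replicate 1 or 2 or any 24 h replicate (from 0.0607 to 0.247).

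The genes of the ERAD list, which does not hold Herpud1, passed in 1 direction. Of 17 tested, 0 were higher and 5 lower at 12 h, and 0 were higher and 6 lower at 24 h, with medians of -0.02 and -0.01. Edem3, an ER mannosidase-like protein that marks glycoproteins for disposal, had the largest fall of the list, from 109.8 ± 2.68 CPM down to 87.1 ± 2.82 at 12 h, with 88.2 ± 3.28 at 24 h (log2 -0.33, adjusted p = 2.05e-05 by edgeR, and -0.31, adjusted p = 4.23e-05). Its relative Edem2 fell by 0.22 at 12 h (adjusted p = 0.00152) and by 0.30 at 24 h (adjusted p = 0.000117). Os9, a lectin of the HRD1 complex, fell by 0.27 at both times (adjusted p = 0.00201 and 0.00250). The lectin Erlec1 did not pass at 12 h, at -0.09, but fell by 0.25 at 24 h against 0 h (adjusted p = 0.000313) and by 0.16 between 12 and 24 h (adjusted p = 0.0314), the 1 call of the list in that comparison. The last call was absent without 12 h replicate 1 or any 24 h replicate (adjusted p from 0.0705 to 0.150). Herpud1, which works in the same pathway, moved opposite to these genes. Derl1 and Edem1 of the list also had upward estimates at 12 h, 0.10 and 0.08. Neither passed (adjusted p = 0.0980 and 0.104 by edgeR).

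In translocation and glycosylation, 1 of 20 genes was higher and 2 were lower at 12 h, with a median of 0.01. At 24 h 0 were higher and 4 lower against 0 h, with a median of -0.07, and 2 were lower against 12 h. Sec61g, a subunit of the translocation channel, rose by 0.13 (log2) at 12 h (adjusted p = 0.0156 by edgeR). Srpr, the receptor of the signal recognition particle, fell by 0.13 at 12 h (adjusted p = 0.0135) and 0.20 at 24 h (adjusted p = 0.000854). Sec62, an accessory of the channel, fell by 0.12 at 12 h (adjusted p = 0.0234), and the channel subunit gene Sec61a1 fell by 0.19 at 24 h (adjusted p = 0.00143). Ssr1 and Ssr2, subunits of the translocon-associated complex, fell by 0.10 and 0.11 from 0 to 24 h (adjusted p = 0.0410 and 0.0352) and by 0.13 and 0.16 from 12 to 24 h (adjusted p = 0.0374 and 0.0108). The 2 counts at 24 h depended on the libraries. Against 0 h, 2 were lower without 0 h replicate 1 or 2 or any 24 h replicate, and 3 without 0 h replicate 3. Neither Ssr gene passed against 0 h without any 1 of these 6 libraries (adjusted p from 0.0660 to 0.126). Against 12 h it was 0 without 12 h replicate 1 or 24 h replicate 1 or 2, 1 without 0 h replicate 2 or 3 or 24 h replicate 3, and 3 without 12 h replicate 3. Ssr1 did not pass there in 7 of the 9 fits without 1 library (adjusted p from 0.0506 to 0.179), nor Ssr2 without 12 h replicate 1 (0.0736), 24 h replicate 1 (0.0578) or 24 h replicate 2 (0.0664). At 12 h the number higher was 0 without 0 h replicate 1 (Sec61g, adjusted p = 0.0564) and 2 without 12 h replicate 3, and the number lower was 1 without 12 h replicate 1 (Sec62, adjusted p = 0.0529). Sec62 also did not pass without 0 h replicate 3 (-0.09, adjusted p = 0.111).

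Of the 4 lists, the sensors and PERK arm had the most genes that passed as higher against 0 h. Of its 12 tested genes, 4 were higher and 2 lower at 12 h and 3 higher and 1 lower at 24 h, with medians of 0.01 and -0.02. Between 12 and 24 h, 0 passed. Atf4, the transcription factor whose translation PERK favours, rose from 326 ± 19.5 CPM up to 447 ± 36.8 at 12 h, with 439 ± 6.27 at 24 h (log2 0.45, adjusted p = 1.11e-05 by edgeR, and 0.43, adjusted p = 2.27e-05). Ddit3, which encodes the stress factor CHOP, was at 12.7 ± 0.543 CPM at 0 h and 15.0 ± 1.66 at 12 h (log2 0.25, adjusted p = 0.114). It was higher at 24 h, at 17.4 ± 2.90 (log2 0.46, adjusted p = 0.00742). Ppp1r15a and Ppp1r15b, the phosphatase subunits that reverse PERK's effect on translation, rose at 12 h by 0.24 (adjusted p = 0.0234) and 0.23 (adjusted p = 0.00227), and at 24 h Ppp1r15b was higher by 0.15 (adjusted p = 0.0410). Mbtps1, the protease that makes the first cut in ATF6, went the other way, and fell by 0.15 at 12 h (adjusted p = 0.00608) and 0.18 at 24 h (adjusted p = 0.00269). Atf4 passed in both comparisons without any single library. Ppp1r15a at 12 h did not pass without 12 h replicate 3 (0.12, adjusted p = 0.109), without 0 h replicate 1 (0.0576) or without 0 h replicate 3 (0.0751), and it passed at 24 h without 12 h replicate 3 (0.17, adjusted p = 0.0126). Ddit3 at 24 h did not pass without 24 h replicate 2 (0.34, adjusted p = 0.0528), nor Ppp1r15b at 24 h without any of the 0 h and 24 h libraries (from 0.0605 to 0.143). The count of genes higher was 2 at 12 h without 0 h replicate 3 or 12 h replicate 3, and 1 at 24 h without 24 h replicate 2. The count lower was 1 at 12 h without 0 h replicate 1 or 2, 12 h replicate 2 or 24 h replicate 2, and at 24 h it was 2 without 12 h replicate 2 and 3 without 12 h replicate 3. ATF4 is known to act on a large set of amino acid genes under several stresses, so Atf4 is not specific to the ER.

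**Figure D4:**
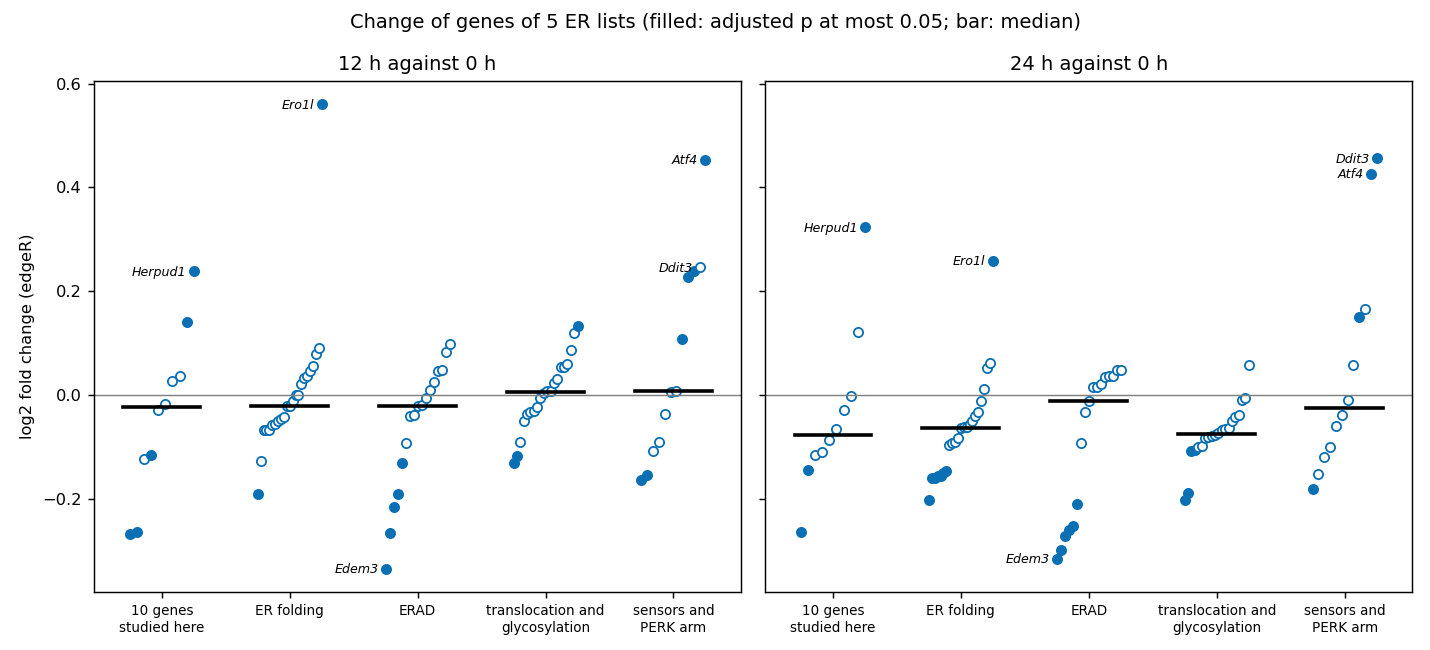
Log2 fold change of every tested gene of the 10 studied here and of the 4 lists, at 12 h (left) and 24 h (right) against 0 h, from edgeR. Filled points passed an adjusted p of 0.05 and bars mark list medians, which lie between -0.08 and 0.01, while Ero1l and Atf4 at 12 h and Ddit3 and Atf4 at 24 h are the highest points.

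Genes whose level ran most like Hspa5 were sought among 8536 genes with a mean of at least 10 CPM. Likeness was the root mean square difference of log2 CPM, each gene centred on its own mean, over the 9 libraries. The nearest were Zbtb7b at 0.013, Chchd3 at 0.018, Tob2 at 0.018, Ythdc1 at 0.018 and Yap1 at 0.018 (log2), beside a deviation of 0.029 of Hspa5 around its own mean. None of these 5 genes passed in any comparison. The nearest of the other 9 members was Atf6, at rank 697 with 0.046, followed by Pdia4 at rank 1711, and the farthest was Xbp1 at rank 7409 with 0.15. Because Hspa5 itself varied little, this measure puts genes that varied little near it and genes that changed far from it. The ranks therefore do not show a course shared with Hspa5. The likeness is a description over 9 libraries that share their depth and scaling between genes.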

How the data were processed

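mRNA of MyC-CaP cells was sequenced with paired ends of 150 bp. Per the labels and the study's methods, the authors trimmed reads with Cutadapt, aligned them to GRCm38.p6 with STAR and a GENCODE annotation, and counted them with featureCounts. The deposited values are raw counts per gene, not normalized. Strand setting and treatment of multi-mapping reads were not given in the sources used here.

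Genes were filtered with filterByExpr, scaled by TMM and fitted over all 9 libraries with time as the only term in edgeR 4.0.16 (R 4.3.3). Times were compared with the quasi-likelihood F-test, with Benjamini-Hochberg adjustment over 11373 genes. A gene passed at an adjusted p of at most 0.05, and fold changes were read against 1.5. SEs were derived from each fold change and its F statistic. Replicates were separate wells, so p-values measure only the spread between these libraries, which may be technical. CPM used TMM sizes, log2 CPM a prior count of 2, and intervals cover 95%. The Pearson correlation of deviations from group means of same-numbered libraries ranged from -0.0744 to 0.131. The main fit did not take the numbers to pair libraries, though a pairing is not excluded by these correlations. Exonic lengths and overlaps were taken from GENCODE vM21, in which 15143 of 15552 genes have the deposited identifier, start and end. Of the 10 members, 9 do so, and Xbp1 has the deposited start and end under another version of its identifier. Promoters are RefSeq's. The fits were tested on simulated data.

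Alternatives were other size factors, total counts, no low-count filter, DESeq2 1.42.0, a replicate block, the 6 libraries of a pair, and leaving out each library. All 10 members were named. Up to 3 passing genes with the largest change per list and comparison, and the 5 genes most like Hspa5, were named as well. Members and lists were chosen with earlier results of these data known. Some of the luminal markers looked up are not reported here.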

Additional observations from a re-analysis of the deposited data

Results flagged for a closer look

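The comparison of 24 h with 12 h tests whether the changes from 0 h at these times differ. It passed for a pair of the 10 genes, by edgeR with adjustment over all genes. Ern1 was higher at 24 h than at 12 h by 0.15 on the log2 scale (adjusted p = 0.0455), and Hsp90b1 was lower, at -0.17 (adjusted p = 0.0146). Each of these calls was lost without some single libraries, as given with the genes.

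Of the genes named from the wider lists, 5 also differed between 12 and 24 h. Ero1l stood at -0.30 (adjusted p = 0.0229), Manf at -0.18 (adjusted p = 0.0442), Ssr2 at -0.16 (adjusted p = 0.0108), Erlec1 at -0.16 (adjusted p = 0.0314) and Ssr1 at -0.13 (adjusted p = 0.0374). Ero1l was the 1 of these 5 that had risen at 12 h. Each of these 5 calls was also lost without some single libraries, and that of Ero1l with DESeq2 (adjusted p = 0.0735). What lies behind the differences was not tested.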

How the results depend on the processing

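No called change of the 10 genes reversed under any of the 15 alternatives. Of 450 results for single members under an alternative, 423 stayed on their side of the threshold, 20 lost it and 7 gained it, and for genes named from the lists 817 of 900 stayed, 72 lost it and 11 gained it. Where a result changed, the cause was not tested. Same-numbered libraries had correlations from -0.0744 to 0.131, and 4 of 9 libraries correlated best with their own number in both other groups. These values do not settle whether the numbers pair the libraries. With the replicate block, members higher at 24 h against 12 h numbered 0, ER folding genes lower at 12 h 2 and sensor genes lower at 24 h 2. With DESeq2, ER folding genes higher at 24 h numbered 0. With total counts, ER folding genes lower at 12 h numbered 2 and translocation genes lower at 24 h against 12 h 1. With no low-count filter, genes passing at 24 h against 12 h numbered 950, of which 455 were higher, and 53 passed 1.5-fold. Members higher at 24 h then numbered 2, ER folding genes lower at 12 h 2, sensor genes lower at 24 h 2, translocation genes higher at 12 h 2 and lower at 24 h 2. With the 6 libraries of a pair alone, members higher numbered 2 at 24 h against 0 h and 0 against 12 h, sensor genes lower 1 at 12 h and 2 at 24 h, and translocation genes lower at 12 h 1.

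Leaving out 1 library gave these ranges. Members higher numbered 1 to 2 at 12 h, 1 to 2 at 24 h and 0 to 1 between 12 and 24 h, and members lower 1 to 4 at 24 h and 0 to 1 between 12 and 24 h. ER folding genes higher numbered 1 to 2 at 12 h and 0 to 1 at 24 h, and lower 0 to 2 at 12 h, 4 to 7 at 24 h and 0 to 4 between 12 and 24 h. ERAD genes lower between 12 and 24 h numbered 0 to 1, and their median at 24 h lay between -0.040 and -0.0037. Sensor genes higher numbered 2 to 4 at 12 h and 1 to 4 at 24 h, and lower 1 to 2 and 1 to 3, with a 24 h median between -0.045 and 0.0033. Translocation genes higher at 12 h numbered 0 to 2, and lower 1 to 2 at 12 h, 2 to 5 at 24 h and 0 to 3 between 12 and 24 h, with a 12 h median between -0.011 and 0.021. Over all genes, 562 to 1094 were lower at 24 h against 0 h. Between 12 and 24 h, 197 to 876 passed, 70 to 432 higher and 116 to 444 lower, and 15 to 38 also passed 1.5-fold.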
